A study of Mus musculus with 22 samples.

Results

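Interferon-stimulated genes are the genes that a cell switches on after an interferon has bound its receptor. Type I and type III interferons signal through the kinases JAK1 and TYK2, which phosphorylate STAT proteins. STAT2 and IRF9 are subunits of the factor ISGF3, which binds a short promoter sequence called the interferon-stimulated response element. The proteins made in this way sense viral RNA, degrade it, block its translation or tag proteins for removal. In the gut epithelium the type III receptor, made of IFNLR1 and IL10RB, is known as a main route of this defence.

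The set described here held 40 such genes, chosen by name from the 52636 genes in the table, and all 40 were found. They were followed in 22 RNA-seq libraries of mouse duodenal organoids, three-dimensional cultures that grow from intestinal crypts and hold stem cells and their epithelial descendants. The cultures came from wild-type adult mice of the outbred CD1 strain, 1 mouse for each organoid line. Cold atmospheric plasma (CAP) is a partly ionised gas at near room temperature, here from a helium jet, that delivers reactive oxygen and nitrogen species to the medium. The question was how the transcripts of these genes in wild-type organoids stood after each way of applying it.

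The 7 groups shared genotype, strain and tissue. Untreated organoids gave 4 libraries, from lines 1, 2, 3 and 4. Every other group held 3 libraries, from lines 1, 2 and 4. In direct CAP the jet ran over the cultures for seconds, and the treated medium then stayed on for 30 min or for 24 h. The times in the names used below, such as CAP for 24 h, are times with treated medium and not times of the jet. By the study's design this exposure began at day 1 and was followed by fresh medium up to an endpoint at day 3. The study also calls the 30 min group an early time after treatment, so its time of harvest is not certain. Indirect CAP means that organoids received medium from another CAP-treated organoid culture, and PAM that they received plasma-activated medium made without organoids. The sample labels give 30 minutes and 24 hours for both of these media, whereas the study's table heads the same libraries as 1 day and 2 days. They are called indirect day 1, PAM day 1, indirect day 2 and PAM day 2 here, since the study describes exposure from day 1 to day 2 or from day 2 to day 3. With the endpoint at day 3, the day 1 groups had time in fresh medium and the day 2 groups had none. The day 2 groups also received medium made at day 1. Day 2 and day 1 thus differ in more than the day of exposure. The lines differed in passage by the labels, with passage 12 for line 1, 14 for line 2 and 4 for lines 3 and 4. For this experiment the study lists male mice at passages 12 and 14 and female mice at passage 2, where the labels give 4. A line, its mouse, the sex of the mouse and the passage thus cannot be told apart.

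Values are read counts that the authors scaled to a common total per library and rounded, called scaled values below. The study's text defines the unit per kilobase of transcript, but the values rose with length, from a median of 26.0 untreated units in the 4831 genes with the shortest exon length to 862.6 in the 4830 with the longest. They were therefore treated as not divided by length, on which the per-kilobase levels below depend. All libraries summed to between 20007540 and 20016513, so the totals carry no information on sequencing depth. Epithelial markers such as Epcam, Krt8 and Vil1 were abundant, with a sum over 8 genes of 99049 to 166237 per library. The general leukocyte gene Ptprc did not exceed 12, the stromal gene Lum was at 0 in every library and Dcn did not exceed 1. Of 15 leukocyte markers 8 stayed under 10 units in every library, whereas Csf1r was at 241 to 334, Cd68 at 16 to 86 and Laptm5 at 5 to 125. Of 11 fibroblast and endothelial markers 7 stayed under 10, and Col1a1 reached 13. These 11 summed to 25 to 78 per library. Treated libraries of the same line resembled each other after group means were removed (median correlation over 19370 genes 0.56, against -0.33 between lines). For the untreated library labelled line 1 this median was 0.08 against treated line 1 and 0.54 against treated line 2. For that labelled line 2 it was 0.13 against its own line and 0.35 against line 1. These labels are therefore in doubt, and results are given with and without both libraries. An exchange between them would change only fits and comparisons that use the line. Fits without both have fewer untreated libraries, so calls lost there cannot be put down to the labels.

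RefSeq promoters, 250 bases before to 50 after the start of transcription, were at hand for 32 of the 40 genes (build GRCm38.p6). The core searched was GAAA, any 2 bases, GAAA, on both strands, which is the centre of the interferon-stimulated response element. It was present in 12 of the 32 genes (37.5%) and in 3.99% of all 27025 genes of the table. The windows below show a core in 7 of the genes described in the results, in capitals and on the strand of the gene, as 1 example of each promoter.
Isg15, chr4:156200877-156200906, minus strand: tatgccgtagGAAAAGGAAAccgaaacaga
Ddx60, chr8:61928024-61928053, plus strand: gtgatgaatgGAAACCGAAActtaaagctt
Stat2, chr10:128270266-128270295, plus strand: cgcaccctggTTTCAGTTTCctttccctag
Rsad2, chr12:26456553-26456582, minus strand: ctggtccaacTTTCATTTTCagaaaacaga
Ifit1, chr19:34640775-34640804, plus strand: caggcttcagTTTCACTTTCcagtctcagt
Ifit3, chr19:34583363-34583392, plus strand: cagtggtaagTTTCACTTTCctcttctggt
Ifit3b, chr19:34607759-34607788, plus strand: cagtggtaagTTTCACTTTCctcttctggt
The windows of Ifit3 and Ifit3b are identical. The cores begin 78 bases before the start site in Isg15, 53 in Ddx60, 222 in Stat2, 120 in Rsad2, 104 in Ifit1, 156 in Ifit3 and 188 in Ifit3b. The other 5 genes with a core were Ifih1, Ddx58, Oas1a, Bst2 and Eif2ak2. A core is a match of letters in this window, not a measured binding site.

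In untreated organoids the set ranged from abundant to barely detected. Per kilobase of exon, Lgals3bp, a secreted glycoprotein, stood highest at a mean of 2178 scaled units. Trim25, a ubiquitin ligase that activates the RNA sensor RIG-I, followed at 489.8 per kilobase, and Ifi35 at 262.6. Samd9l stood at 185 and Eif2ak2, the RNA-activated kinase PKR that stops translation, at 168.6. At the low end Rsad2 was at 1.44 per kilobase, Oas2 at 0.674, Zbp1 at 0.496, Xaf1 at 0.48 and Ifi44 at 0.122. Zbp1, a sensor of Z-form nucleic acid, did not exceed 6 scaled units in any library, nor did Ifi44. Neither reached the filter of 10 units in at least 3 libraries, so both went untested in every comparison.

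**Figure D1:**
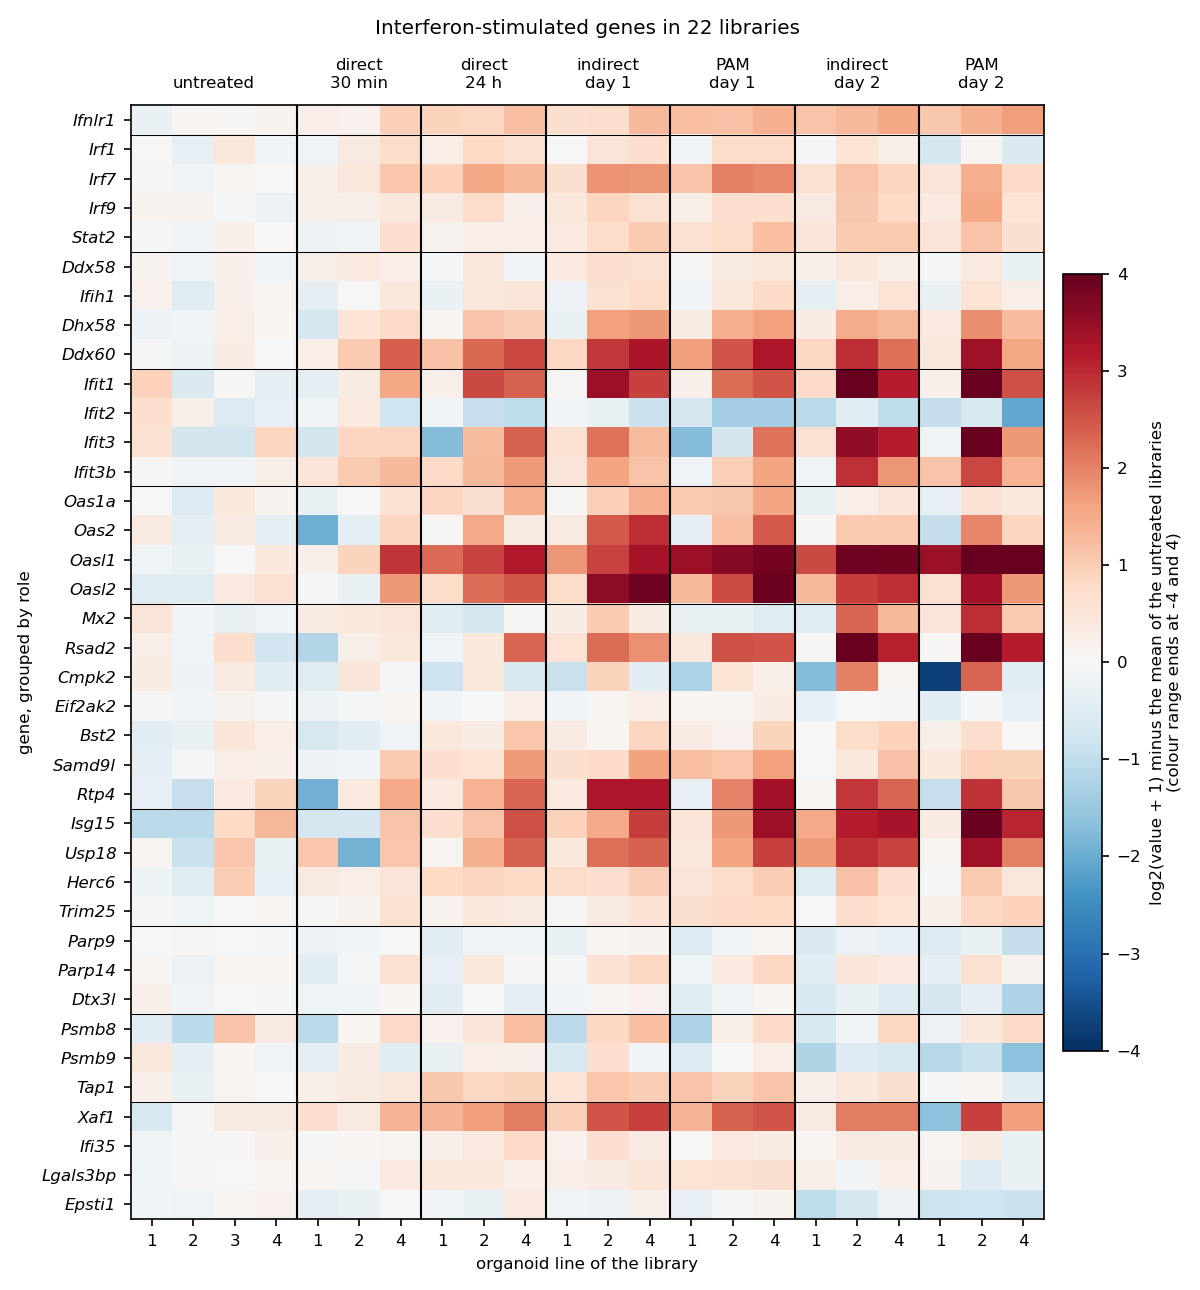
Heatmap of 38 interferon-stimulated genes (rows, grouped by role) in the 22 libraries (columns, by group and organoid line), with colour for log2(value + 1) minus the mean of the 4 untreated libraries and colours ending at -4 and 4. Oasl1 is red in all treated groups, and many rows are paler in line 1 than in lines 2 and 4 of the same group.

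CAP for 24 h from day 1 was the first comparison. It joined indirect day 1, PAM day 1 and direct CAP for 24 h as 9 treated libraries and set them against the 4 untreated ones. Of the 38 genes that passed the filter, 8 were higher and 0 lower past the study's threshold, an adjusted p under 0.01 in limma's moderated test with a log2 fold change of at least 1. That is 21.1% of the genes tested, beside 4.27% of all 18490 genes called higher. The set was chosen with earlier results of these data known, and the study had already named Ifnlr1 and Ddx60 as higher. The shares here and below are thus a description and not a test of the set. The 8 were Oasl1 (chr5:114923240-114937915), Oasl2 (chr5:114896936-114912234), Ddx60 (chr8:61928087-62038244), Xaf1 (chr11:72301629-72313733), Irf7 (chr7:141262706-141266481), Samd9l (chr6:3372257-3399572), Ifnlr1 (chr4:135686287-135708181) and Oas1a (chr5:120896256-120907521), with positions on GRCm38. The median log2 fold change was 0.61 over the 38 genes and -0.05 over all genes tested, and 31 of the 38 were above 0. Xaf1, Usp18, Rtp4, Oas2, Ifit3 and Ifit3b were under 10 units in every untreated library. Oasl2, Isg15, Ifit1, Rsad2, Mx2 and Herc6 reached 10 units in fewer than 3 untreated libraries. All of these genes needed treated libraries to pass the filter, which favours higher values in these counts. For 10 of the 38 genes (26.3%) all 9 treated libraries lay above all 4 untreated ones, beside 7.16% of all genes. For 0 of the 38 did all 9 lie below, beside 10.5% of all genes. Each of the 3 lines gives 3 treated libraries, so the 9 are not 9 independent mice. In these bulk samples fewer cells of a type and less RNA per cell cannot be told apart.

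**Figure D2:**
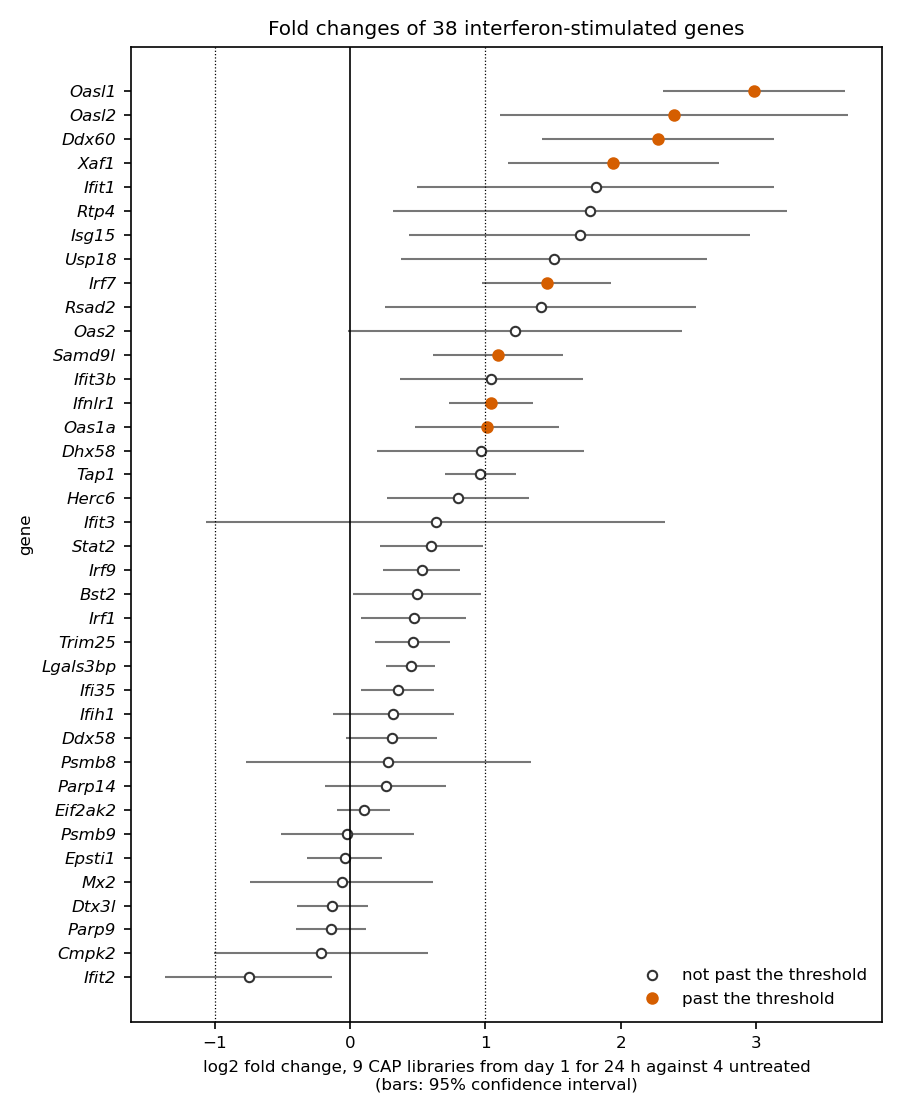
Log2 fold change (x axis) of the 38 genes tested (y axis) for the 9 libraries with CAP for 24 h from day 1 against the 4 untreated libraries, with 95% confidence intervals from limma as bars. The 8 filled points, from Oas1a at 1.01 to Oasl1 at 2.98, are past the threshold, and Ifit2 lies lowest at -0.75.

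The receptor chain gene Ifnlr1 was at 284, 358, 352 and 376 scaled units in untreated lines 1 to 4. For lines 1, 2 and 4 in order, it was at 629, 605 and 783 after direct CAP for 24 h, 527, 561 and 838 in indirect day 1, and 788, 763 and 919 in PAM day 1. All 9 libraries were above all 4 untreated ones, and the log2 fold change was 1.04 ± 0.14 (SE, limma, adjusted p = 0.000289). In indirect day 2 it was at 746, 845 and 1005, and in PAM day 2 at 713, 923 and 1090. After direct CAP for 30 min it was at 407, 381 and 666. It was called in 3 single groups, PAM day 1 (1.27 ± 0.13), indirect day 2 (1.33 ± 0.14) and PAM day 2 (1.39 ± 0.17).

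Among the 4 transcription factors, Irf7, which amplifies interferon responses, was past the threshold. Its untreated values were 199, 174, 207 and 194 in lines 1 to 4. They were 367, 567 and 487 after direct CAP for 24 h in lines 1, 2 and 4, 299, 674 and 660 in indirect day 1, and 425, 792 and 728 in PAM day 1. Each treated library exceeded the highest untreated one, and line 1 was the lowest of the 3 lines in each group. The log2 fold change was 1.45 ± 0.22 (limma, adjusted p = 0.000545). The ISGF3 subunit Irf9 was higher by less (0.53 ± 0.13, adjusted p = 0.00795), which passes the p threshold and not the fold threshold. Stat2, another subunit, had 0.60 ± 0.18 (adjusted p = 0.0191), and Irf1 had 0.47 ± 0.18 (adjusted p = 0.0609).

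Of the 4 RNA sensors tested, Ddx60, a helicase that promotes RIG-I signalling, was past the threshold. Untreated libraries held 49, 45, 64 and 51 units in lines 1 to 4. Lines 1, 2 and 4 held 117, 257 and 338 after direct CAP for 24 h, 93, 375 and 509 in indirect day 1, and 166, 303 and 492 in PAM day 1. Every treated library stood above the untreated ones, with line 1 closest to them. The log2 fold change was 2.28 ± 0.40 (limma, adjusted p = 0.00116). Dhx58, which encodes the regulator LGP2, had 0.97 ± 0.36 (adjusted p = 0.0512). The RIG-I gene Ddx58 and the MDA5 gene Ifih1 had 0.31 and 0.32 and were not past the threshold.

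The OAS family held 3 of the 8 called genes. OAS proteins make a second messenger that activates the nuclease RNase L, and the OAS-like proteins Oasl1 and Oasl2 are related to them. Oasl1 was at 176, 156, 195 and 262 in untreated lines 1 to 4. In lines 1, 2 and 4 it was at 935, 1272 and 1792 after direct CAP for 24 h, 666, 1273 and 1911 in indirect day 1, and 2079, 2439 and 2754 in PAM day 1. The groups were far apart, with a log2 fold change of 2.98 ± 0.31 (limma, adjusted p = 4.16e-05). Oasl2 started at 5, 5, 10 and 12 units. It stood at 13, 39 and 46 after direct CAP for 24 h, 13, 101 and 126 in indirect day 1, and 20, 51 and 130 in PAM day 1, with the lowest treated value 1 unit above the highest untreated one. Its log2 fold change was 2.39 ± 0.60 (adjusted p = 0.00811). In each comparison with untreated organoids Oasl2 needed treated libraries to pass the filter, which favours a higher value. Oas1a was at 68 to 135 in untreated and 103 to 299 in treated libraries, which overlap (1.01 ± 0.25, adjusted p = 0.0074). Of the 100-base stretches of Oas1a exons, 40.9% also occur in Oas1g, so reads of the pair may have been lost or misassigned. Oas2, at 2 to 4 units untreated and 2 to 29 treated, was not past the threshold (1.22 ± 0.58, adjusted p = 0.117).

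Among the antiviral effectors, Samd9l, a translation inhibitor, was past the threshold. It was at 760, 939, 1179 and 1137 in untreated lines 1 to 4, and its lowest, median and highest values in the 9 treated libraries were 1457, 2119 and 3206. The groups did not overlap, and the log2 fold change was 1.10 ± 0.22 (limma, adjusted p = 0.00264). Rsad2, which encodes viperin, an enzyme that makes a chain-terminating nucleotide, was at 3 to 10 untreated and 5 to 39 treated (1.41 ± 0.54, adjusted p = 0.0569). Rtp4 (1.77 ± 0.68) and Bst2 (0.50 ± 0.22), which encodes the virion-retaining protein tetherin, were not past it either. Mx2, Cmpk2 and Eif2ak2 lay between -0.22 and 0.10.

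Xaf1, a pro-apoptotic gene, was at 1, 2, 3 and 3 units in untreated libraries, and at 7, 9 and 12 after direct CAP for 24 h, 5, 17 and 20 in indirect day 1, and 7, 15 and 17 in PAM day 1. All treated libraries were above all untreated ones at these few units (1.95 ± 0.37, limma, adjusted p = 0.00166). Among the comparisons with untreated organoids it passed the filter only in this one, through the treated libraries, so only a higher value could be found for it. None of the 4 IFIT genes, which bind foreign RNA, was past the threshold. Ifit1 and Ifit3b had 1.81 ± 0.62 and 1.04 ± 0.32 (adjusted p = 0.0357 and 0.0211), whereas Ifit2 was at -0.75 ± 0.29 (adjusted p = 0.0591). The ubiquitin-like modifier Isg15, at 2, 2, 10 and 15 untreated and 8 to 66 treated, had 1.70 ± 0.59 (adjusted p = 0.0385), and its protease Usp18 1.51 ± 0.53 (adjusted p = 0.0401). With a replicate block for the line, Isg15 (1.96), Usp18 (1.88) and Herc6 (1.13) were also past the threshold, which made 11 genes. These added genes needed treated libraries to pass the filter, which favours higher values. Blocked fits rest on the doubtful line labels of the untreated libraries, and the share of all genes called in them is not given here.

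In the antigen-presentation group, the peptide transporter gene Tap1 was at 210, 148, 196 and 182 in untreated lines 1 to 4. It was at 390, 327 and 340 after direct CAP for 24 h, 267, 392 and 363 in indirect day 1, and 406, 342 and 405 in PAM day 1. The groups did not overlap, and the log2 fold change of 0.96 ± 0.12 (limma, adjusted p = 0.000175) fell just short of 1. The immunoproteasome genes Psmb8 (0.28 ± 0.49) and Psmb9 (-0.02 ± 0.23) were not past the threshold. Neither were Parp9, Parp14 and Dtx3l, between -0.14 and 0.26. Lgals3bp was higher in all 9 treated libraries with a small fold (0.45 ± 0.08, adjusted p = 0.00172).

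The other genes of the set spanned different ranges over the 22 libraries. Trim25 lay between 2503 and 5271 units, Eif2ak2 between 643 and 1064 and Ifi35 between 378 and 764. Dtx3l, the ubiquitin ligase partner of Parp9, lay between 337 and 908, Parp9 between 308 and 668 and Parp14 between 273 and 664. Epsti1 was at 203 to 539, Ddx58 at 229 to 450, Ifih1 at 273 to 645 and Stat2 at 286 to 763. Low genes were Psmb8 at 7 to 42, Herc6 at 8 to 27, Mx2 at 5 to 75, Rtp4 at 0 to 38 and Ifit3 at 0 to 61. In the 7 comparisons with untreated organoids none of these genes was past the threshold. Under alternatives Herc6 was, with the replicate block, as were Rtp4 (for CAP for 24 h from day 1) and Stat2 (in indirect day 2) with the treated libraries of line 1 left out.

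Without the untreated libraries of lines 1 and 2, Oasl1 alone remained past the threshold (2.76, limma, adjusted p = 0.0049). The log2 fold changes of the other 7 were then 2.14 for Ddx60, 1.90 for Oasl2, 1.59 for Xaf1, 1.40 for Irf7, 0.94 for Ifnlr1, 0.87 for Samd9l and 0.73 for Oas1a, with 2 untreated libraries left.

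**Figure D3:**
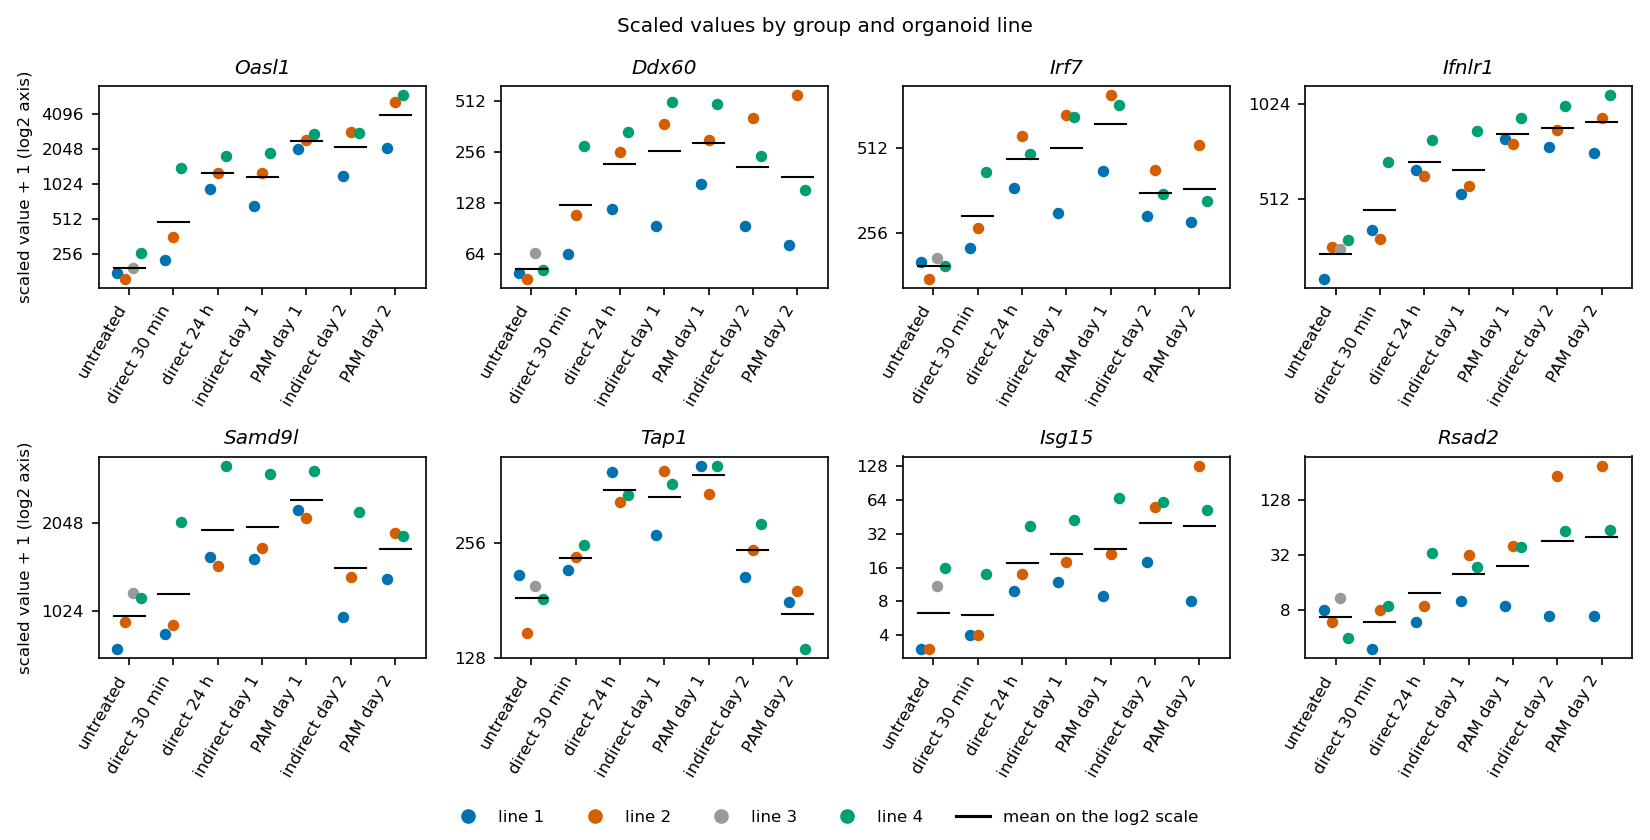
Scaled values plus 1 on a log2 axis for 8 genes in the 7 groups, with 1 point per library coloured by organoid line and a bar at the mean on the log2 scale. Oasl1 stands above the untreated values in all treated groups except 1 library of direct CAP for 30 min, while Rsad2 in line 1 stays between 2 and 9 units in the 6 treated groups.

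The single groups were each compared with the same 4 untreated libraries, which they share, so their calls are not independent. Direct CAP for 30 min gave 0 of 32 genes past the threshold in limma, beside 0.00564% of all 17731 genes called higher, and 6 of the 32 (18.8%) had an unadjusted p under 0.05, beside 24.9% of all genes. Line 4 stood apart there. Its library held 1415 units of Oasl1, against 225 in line 1 and 359 in line 2, and 277 of Ddx60, against 63 and 108. The untreated range of Oasl1 was 156 to 262, so line 1 lay inside it. The log2 fold change of Oasl1 was 1.32 ± 0.54 (adjusted p = 0.178). Line 4 was also the highest for Irf7, at 225, 264 and 420 in lines 1, 2 and 4, and for Samd9l, at 858, 919 and 2056. Oasl2 was at 7, 6 and 27, Oas1a at 83, 98 and 150 and Xaf1 at 4, 3 and 7.

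Direct CAP for 24 h gave 3 of 31 genes higher (9.68%, beside 1.25% of all genes), Oasl1 (2.73 ± 0.24), Ddx60 (2.04 ± 0.34) and Irf7 (1.27 ± 0.16). With the replicate block only Oasl1 was left. Indirect day 1 gave 1 of 33 (3.03%, beside 0.831%), Oasl1 (2.60 ± 0.33, adjusted p = 0.00433). PAM day 1 gave 8 of 31 (25.8%, beside 4.83%). These were Oasl1 (3.63 ± 0.18), Oasl2 (2.63 ± 0.60), Ddx60 (2.47 ± 0.33), Irf7 (1.69 ± 0.21), Samd9l (1.31 ± 0.18), Ifnlr1 (1.27 ± 0.13), Oas1a (1.23 ± 0.25) and Tap1 (1.07 ± 0.15). Without the untreated libraries of lines 1 and 2 the numbers were 0, 0 and 4, the 4 in PAM day 1 being Oasl1, Samd9l, Ifnlr1 and Tap1.

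Indirect day 2 gave 5 of 33 genes higher (15.2%, beside 6.2% of all genes). Oasl1 held 1206, 2866 and 2843 units in lines 1, 2 and 4 (3.46 ± 0.31, limma, adjusted p = 0.000122). Ifnlr1 is given above, Ddx60 was at 93, 407 and 243 (2.00 ± 0.43), Oasl2 at 20, 56 and 64 (2.33 ± 0.48) and Usp18 at 11, 28 and 23 against 3, 1, 7 and 2 untreated (2.45 ± 0.53, adjusted p = 0.00687). Usp18 passed the filter through these 3 treated libraries, so only a higher value could be found for it. With the replicate block Usp18 and Ddx60 were no longer past the threshold and Isg15 was (2.92, adjusted p = 0.00873). Without the untreated libraries of lines 1 and 2, Oasl1 and Ifnlr1 remained. Irf7, at 292, 428 and 350, Samd9l, at 981, 1339 and 2233, and Xaf1, at 3, 12 and 12, were not past the threshold or not tested.

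PAM day 2 gave 3 of 33 genes higher (9.09%, beside 6.82%), a share near that of all genes, and 1 lower (3.03%, beside 10.5%). Oasl1 was at 2115, 5244 and 5994 units, the last being its highest value in the 22 libraries (4.38 ± 0.35, limma, adjusted p = 0.000318). Ifit3b was at 16, 48 and 19 against 6 to 8 untreated (1.73 ± 0.41, adjusted p = 0.00932), and 27.4% of its 100-base stretches also occur in Ifit3. It passed the filter through these 3 treated libraries, so only a higher value could be found for it. The lower gene was Psmb9, an immunoproteasome subunit, at 34, 40 and 23 against 100, 58, 78 and 67 untreated (-1.21 ± 0.28, adjusted p = 0.00853). Ddx60 was at 72, 556 and 152 units, the widest gap between lines 1 and 2 of any treated group for this gene. Irf7 was at 278, 527 and 330, Oasl2 at 12, 86 and 27, Samd9l at 1317, 1889 and 1846 and Xaf1 at 0, 20 and 9, none of them called. The exons of Psmb9 share 212 bases with those of Tap1 on the opposite strand. With the replicate block Ifit3b and Psmb9 were not past the threshold, and without the untreated libraries of lines 1 and 2 none of the 4 was, with adjusted p from 0.0126 to 0.0723.

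Tap1 and Oas1a were not past the threshold in either day 2 group. Tap1 was at 208, 244 and 285 in indirect day 2 and at 178, 191 and 134 in PAM day 2, against 148 to 210 untreated. Oas1a was at 82, 120 and 142, and at 79, 150 and 135, against 68 to 135 untreated. Tested directly, PAM day 2 minus PAM day 1 was -1.20 ± 0.19 for Tap1 (95% interval -1.65 to -0.76, limma, adjusted p = 0.0503) and -1.01 ± 0.29 for Oas1a (-1.70 to -0.32, adjusted p = 0.0905). Neither passed the threshold. Indirect day 2 minus indirect day 1 was -0.46 ± 0.19 for Tap1 (adjusted p = 0.213).

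Between treated groups 7 pairs were compared, and no gene of the set was past the threshold in limma in any of them. The numbers tested were 32 for direct CAP, 24 h against 30 min, 37 for indirect and 37 for PAM, day 2 against day 1, 37 for indirect day 1 against direct CAP for 24 h, 35 for PAM day 1 against direct CAP for 24 h, 37 for PAM day 1 against indirect day 1, and 37 for PAM day 2 against indirect day 2. Those with an unadjusted p under 0.05 numbered 5, 4, 10, 2, 3, 4 and 2 in that order. They made up 15.6%, 10.8%, 27.0%, 5.41%, 8.57%, 10.8% and 5.41% of the genes of the set tested, beside 21.4%, 21.7%, 26.8%, 6.95%, 10.4%, 21.7% and 9.48% of all genes at the same unadjusted p. Past the threshold were 0.0111% of all genes in indirect day 2 against day 1, and 0.0% in each of the other 6 pairs. The difference of Oasl1 between PAM day 1 and direct CAP for 24 h was 0.90 ± 0.23 (95% interval 0.36 to 1.45, adjusted p = 0.356), and between PAM day 1 and indirect day 1 it was 1.04 ± 0.35 (0.20 to 1.87, adjusted p = 0.184). Between PAM day 2 and indirect day 2 it was 0.92 ± 0.49 (-0.24 to 2.08). These intervals leave room for differences of more than 1 log2 unit.

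The organoid line separated the values of the set within each treated group. Line 1 was the lowest of lines 1, 2 and 4 in all 6 treated groups for 18 of the 38 genes (47.4%), beside 1.69% of the 19370 genes with 10 or more units in at least 3 libraries. Line 2 was the lowest in all 6 groups for 0 of the 38 and line 4 for 0, beside 4.33% and 6.32% of all genes. The 18 were Irf1, Irf7, Stat2, Ifih1, Dhx58, Ddx60, Ifit1, Ifit3, Ifit3b, Oas2, Oasl1, Rsad2, Cmpk2, Eif2ak2, Rtp4, Trim25, Parp14 and Psmb8. No gene of the set had line 1 highest in all 6, Cmpk2 had line 2 highest, and Psmb8 and Ifnlr1 had line 4 highest, a number that was 6 in place of 2 with quantile normalization. Averaged over the 6 groups, line 1 minus the mean of lines 2 and 4 had a median of -0.65 log2 units over the 38 genes and 0.08 over all genes. It was below 0 for 36 of the 38, beside 35.1% of all genes. This pattern was found in the data and is a description without a test.

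For several antiviral genes, treated libraries of line 1 lay mostly within the untreated range, and for Cmpk2 below it. Rsad2 was at 3 to 10 units untreated, and its lowest, median and highest values in the 6 treated libraries of line 1 were 2, 6 and 9, against 7, 35.5 and 303 in the 12 of lines 2 and 4. The highest, 234 and 303, were those of line 2 in indirect day 2 and PAM day 2. Ifit1 was at 6 to 19 units untreated. Treated, it was at 7, 11 and 17 in line 1 and at 12, 62 and 256 in lines 2 and 4. Isg15, at 2 to 15 untreated, was at 3, 8.5 and 17 in line 1 and at 3, 39.5 and 129 in lines 2 and 4. Cmpk2, a mitochondrial nucleotide kinase gene next to Rsad2 on chromosome 12, was at 39 to 67 untreated, 3, 24.5 and 37 in line 1, and 34, 66.5 and 270 in lines 2 and 4, so all treated values of line 1 lay below the untreated ones.

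Other genes stood above the untreated range in line 1 as well. Oasl1 reached 2115 units there in PAM day 2, and its 6 treated values in line 1 had a lowest of 225 and a median of 1070.5, against 359 and 2175 in lines 2 and 4. Ifnlr1 was at 407, 671 and 788 in line 1, all above the untreated maximum of 376, and at 381, 810.5 and 1090 in lines 2 and 4. Tap1 had line 1 below the mean of the other lines in 3 of 6 groups. The exceptions in direction were Ifit2, with line 1 higher by 0.35 ± 0.43 (SD, n = 6 groups), and Lgals3bp, with 0.08 ± 0.25. As labelled, the untreated libraries had another line order than the treated ones. Line 1 was the lowest of lines 1, 2 and 4 for 7 of the 38 genes and line 2 for 21. The shares of all genes were 34.1% and 31.6%. If the labels of these 2 untreated libraries were exchanged, line 1 would be the lowest for 21 genes and line 2 for 7. Line 1 would then be low in untreated libraries as well. Whether the line order was there before treatment cannot be told while these labels are in doubt.

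**Figure D4:**
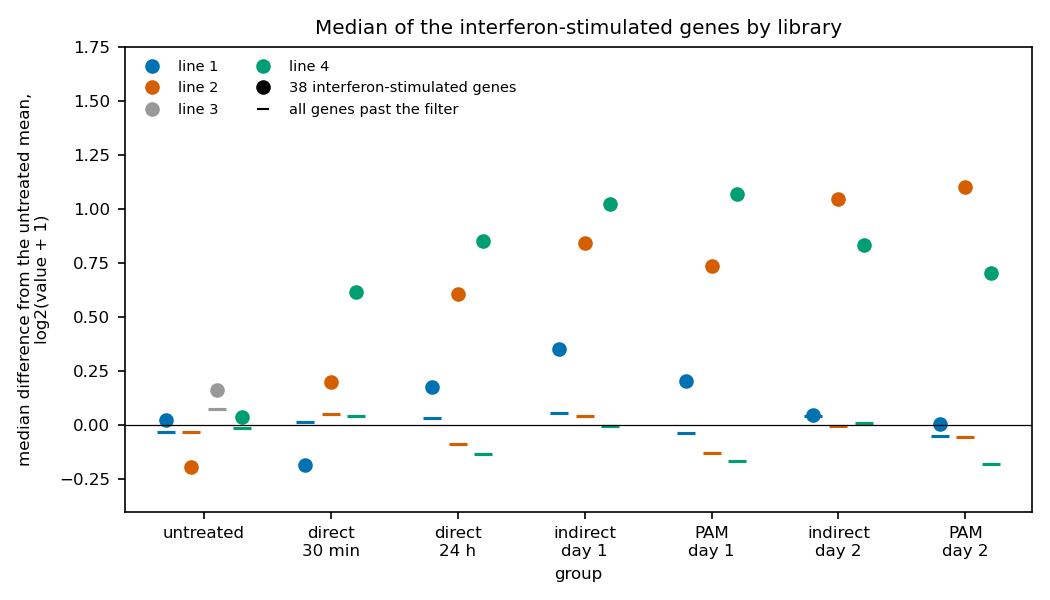
Median over 38 interferon-stimulated genes (circles) and over all genes past the filter (dashes) of the difference from the untreated mean on the log2(value + 1) scale, for each library by group (x axis) and organoid line (colour). In the treated groups line 1 lies between -0.19 and 0.35, below lines 2 and 4 of the same group.

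Taken library by library, the median difference from the untreated mean over the 38 genes was -0.19, 0.20 and 0.62 in lines 1, 2 and 4 after direct CAP for 30 min. It was 0.18, 0.61 and 0.85 after direct CAP for 24 h, and 0.35, 0.84 and 1.03 in indirect day 1. PAM day 1 had 0.20, 0.73 and 1.07. Line 1 was lowest in each, and line 4 highest. In the day 2 groups line 2 was highest, with 0.05, 1.05 and 0.83 in indirect day 2 and 0.01, 1.10 and 0.71 in PAM day 2. Medians over all genes stayed between -0.18 and 0.06 in the same libraries. With the treated libraries of line 1 left out, a choice made after this pattern was seen, the numbers of genes higher were 14 for CAP for 24 h from day 1, 3 for direct CAP for 24 h, 3 for indirect day 1, 11 for PAM day 1, 8 for indirect day 2 and 7 for PAM day 2. Line 1 was left out for being low on these same genes, which favours more calls among them. The share of all genes called in these fits is not given here, so the numbers do not set the genes apart from others.

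The promoter core and the measured values are set side by side as a description. Of the 12 genes with a core, 8 had line 1 lowest in all 6 treated groups, against 6 of the 19 tested genes without one. Of the same genes, 2 of 12 with a core (Ddx60 and Oas1a) and 6 of 19 without were past the threshold for CAP for 24 h from day 1. Median log2 fold changes were 0.82 with a core and 0.47 without, with ranges of 0.10 to 2.28 and -0.75 to 2.98. The largest fold change, of Oasl1, was in a gene with no core in the window. Those of Oasl2, without a core, and Ddx60, with one, were close beside their standard errors given above.

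The interferons themselves were hardly detected. Of 19 interferon genes, 10 were at 0 in all 22 libraries, Ifnb1 and Ifng among them, and 18 never reached 10 units. Ifnk, an epithelial type I interferon, was at 6 to 35 units and was not past the threshold in any group. Ifnl2 did not exceed 2 and Ifnl3 did not exceed 1. Interferon protein was not measured.

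The receptors, kinases and STATs outside the set all passed the filter. For CAP for 24 h from day 1, 1 of 13 was higher past the threshold, beside 4.27% of all genes. This was Socs3, a feedback inhibitor of JAK kinases, which rose from 328.2 ± 58.3 (SD, n = 4) to 685.9 ± 157 units (SD, n = 9), a log2 fold change of 1.05 ± 0.17 (limma, adjusted p = 0.000701). It was also called in PAM day 1 (1.06), indirect day 2 (1.32) and PAM day 2 (1.38). Without the untreated libraries of lines 1 and 2 it kept its call in indirect day 2 (1.23, limma, adjusted p = 0.00434) and in none of the other 3 comparisons. With the replicate block it lost the call in PAM day 1 (adjusted p = 0.0102). The type I receptor gene Ifnar2 had 0.70 (adjusted p = 0.00319), under the fold threshold, and Ifnar1 had 0.10.

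Of 14 sensor adaptors and kinases, 0 were past the threshold for CAP for 24 h from day 1, with 9 (64.3%) at an unadjusted p under 0.05, beside 44.1% of all genes. In PAM day 2, 3 of the 14 were lower, beside 10.5% of all genes. Tmem173, which encodes the DNA-sensing adaptor STING, was at 18 ± 3.46 against 60.2 ± 19.6 units untreated (-1.63 ± 0.34, limma, adjusted p = 0.0054). Mb21d1, the gene of the DNA sensor cGAS, had -1.09 ± 0.14 and Irf8 -1.52 ± 0.24. Tmem173 (-2.14) and Irf8 (-1.07) were also lower in PAM day 1, which is 2 of the 14 beside 937 of all 17357 genes. Without the untreated libraries of lines 1 and 2, Tmem173 in PAM day 1 kept its call (-2.47, adjusted p = 0.00861) and the other 4 did not. With the replicate block Tmem173 was not past the threshold in either group (limma, adjusted p = 0.0184 in PAM day 1 and 0.0138 in PAM day 2).

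A further list held interferon-induced genes outside the set, of which 40 were tested for CAP for 24 h from day 1. Of these, 4 were higher, Apol9a (2.88 ± 0.68), Oas3 (2.46 ± 0.61), Ifi27 (1.59 ± 0.34) and Parp12 (1.16 ± 0.19), beside 4.27% of all genes called higher, and 0 lower. The median log2 fold change was 0.52, beside -0.05 over all genes. Apol9a, at 0 to 6 units untreated, and Oas3, at 3 to 10, passed the filter through the treated libraries, so only higher values could be found for them. None of the 4 stayed past the threshold without the untreated libraries of lines 1 and 2. PAM day 1 had 4 of 37 higher, Oas3 (2.89), Parp12 (1.35), Isg20 (1.11) and Uba7 (1.01), beside 4.83% of all genes. Direct CAP for 24 h had 1 of 37, Parp12 (1.20), beside 1.25%. Without both untreated libraries Parp12 in PAM day 1 alone of these 5 kept its call (1.09, limma, adjusted p = 0.00963), and with the replicate block Isg20 lost it. Indirect day 2 had 2 of 38 higher, Helz2 (1.03) and Isg20 (1.02), beside 6.2% of all genes. PAM day 2 had 3 of 37 higher, Mx1 (2.02), Isg20 (1.52) and Helz2 (1.16), beside 6.82%. Both shares were near that of all genes. Irgm1, an interferon-induced GTPase of autophagy, was lower in both day 2 groups (-1.29 and -1.73). It was 1 gene of 38 in indirect day 2, beside 1019 of all 17860, and 1 of 37 in PAM day 2, beside 10.5%. Of these day 2 calls Helz2 in indirect day 2 alone was kept without both untreated libraries (1.11, limma, adjusted p = 0.00513). The replicate block ended those of Isg20 in indirect day 2 and Helz2 in PAM day 2. Guanylate-binding protein genes, which respond to interferon gamma, were near 0, with Gbp2, Gbp3, Gbp5, Gbp6, Gbp7 and Gbp9 at no more than 7 units.

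Other markers moved with the same groups. All 5 intestinal stem cell markers, Lgr5, Olfm4, Ascl2, Smoc2 and Axin2, summed to 32557 to 38876 units in untreated libraries and to 1306 to 15040 in the 9 libraries with CAP for 24 h from day 1, where 4 of 5 were lower. Of all genes, 383 of 18490 were lower there. The sum of these markers was 757 to 3953 in the day 2 groups, where all 5 were lower. Of all genes, 1019 of 17860 were lower in indirect day 2 and 10.5% in PAM day 2. Leukocyte markers summed to 293 to 360 units untreated and 324 to 541 treated over 15 genes. Most of that was Csf1r, at 241 to 334 in every library. The macrophage-associated gene Cd68 rose from 21.5 to 56.4 (1.35 ± 0.20, limma, adjusted p = 0.000427) and Laptm5 from 21.5 to 75 (1.98 ± 0.48), while Adgre1 did not exceed 4, Tyrobp 1 and Cd4 1. Of 8 enterocyte markers 0 were past the threshold for CAP for 24 h from day 1, with 2 at an unadjusted p under 0.05. In indirect day 2 Alpi was higher (1.07) and Apoa1 (-2.22) and Anpep (-2.29) lower, and in PAM day 2 Alpi was higher (1.42). The shares of all genes called higher were 6.2% in indirect day 2 and 6.82% in PAM day 2. The part of these shifts in the values of the interferon-stimulated genes was not tested.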

How the data were processed

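Total RNA of each culture was sequenced as paired-end reads. The labels name the Ovation SoLo kit and the study's methods also NEBNext, with no kit given per library. The authors trimmed with Trimmomatic 0.36, mapped to GRCm38 with STAR 2.5.3a and counted genes with HTSeq 0.9.1. The deposited values are a score, read counts scaled by the authors to a common total per library and rounded to whole numbers. Reads before scaling could not be recovered exactly, so no count model was run, and read depth and its counting error are not given.

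Values were fitted with limma 3.58.1 (R 4.3.3) as log2(value + 1), with a trended variance, over all genes at 10 or more in at least 3 libraries fitted. A call needed a Benjamini-Hochberg adjusted p under 0.01 with a log2 fold change no smaller than 1. Fold changes on this scale understate those of low genes. Each fit held only the groups compared. The procedure was tested on simulated data.

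Replicate numbers are organoid lines, each from 1 mouse, so they pair the libraries. Treated libraries of the same line correlated above 0.1 in all 45 pairs after group means were removed. Those of line 4 carry a shortened line name. The line as a replicate block was an alternative, as were an adjusted p under 0.05 without a fold minimum, one fit over all groups, no filter, quantile normalization, a pseudocount of 10, and leaving out libraries. Replicates were compared, and no 2 libraries of a group held the same values.

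All 40 genes are accounted for. From the lists outside the set, 1 gene is not reported here. Genes called in the first comparison or in at least 2 single groups are named with their levels, and others by role. Of other lists, all called genes are named where there were 5 or fewer. The members and lists were chosen with earlier results of these data known. Gene positions and exon lengths come from GENCODE M21 (GRCm38), which matched 99.7% of genes. Figures were drawn with matplotlib 3.10.9.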

Additional observations from a re-analysis of the deposited data

Results flagged for a closer look

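Within the 4 untreated libraries, 2 of the 38 genes had a single value apart from the rest. Ifih1 was at 273 units in line 2 and at 405 to 439 in the others, with a gap of 0.830 of the range on the log2 scale. Parp14 was at 316 in line 2 and at 392 to 404 in the others, with a gap of 0.877 of the range. Both are just past Dixon's critical value for 4 samples, and chance flags about 1 in 20 groups.

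For 3 genes the values of 2 treated groups lay on opposite sides of the untreated mean in every library. Mx2 was at 13, 75 and 19 units in lines 1, 2 and 4 of PAM day 2 and at 7, 7 and 6 in PAM day 1, a difference for day 1 minus day 2 of -1.86 log2 units (limma, adjusted p = 0.122 for day 2 against day 1). Mx2 also differed between indirect day 1, at 11, 19 and 11, and PAM day 1 by 0.89 log2 units (limma, adjusted p = 0.194). Eif2ak2 was at 912, 914 and 1064 in PAM day 1 and at 643, 826 and 687 in PAM day 2, a difference of 0.43 (limma, adjusted p = 0.117). Bst2 was at 50, 57 and 71 after direct CAP for 30 min and at 106, 97 and 169 after 24 h, a difference for 30 min minus 24 h of -1.02 (limma, adjusted p = 0.205). None of these differences was past the threshold when tested directly.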

How the results depend on the processing

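The sequencing depth behind the scaled values is unknown, so the counting error of genes at a few units, such as Xaf1, Oasl2 and Usp18, could not be given. Of 475 re-run values for the 29 gene and comparison pairs past the threshold, 350 stayed past it, 125 kept their direction and fell short of it, and 0 changed direction. In all settings run, 6 pairs stayed past it: Oasl1 for CAP for 24 h from day 1, in PAM day 1 and in indirect day 2, Ifnlr1 in PAM day 1 and indirect day 2, and Samd9l in PAM day 1. The causes of the shifts below were not tested. The shares of all genes called in these settings are not given here, so the counts below do not set the genes apart from others.

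The 8 genes higher for CAP for 24 h from day 1 became 5 with a pseudocount of 10, 19 at an adjusted p under 0.05 without a fold minimum, and 1 without the untreated libraries of lines 1 and 2. They ranged from 5 to 9 when 1 library was left out, with 5 without untreated line 1, untreated line 2 or PAM day 1 line 4. Of the 8, Oasl2 fell short in 14 of 21 values and Oas1a in 12 of 21. The 3 for direct CAP for 24 h became 5 with quantile normalization, 1 with the replicate block, 10 at an adjusted p under 0.05 and 0 without both untreated libraries. Leaving out 1 library gave 1 to 3, with 1 without any single untreated library or line 4 of the group. The 1 gene in indirect day 1 became 2 with all groups in one fit, 2 with the replicate block, 11 at an adjusted p under 0.05 and 0 without both untreated libraries. Leaving out 1 library gave 0 to 3, with 0 without any single untreated library or line 2 of the group and 3 without line 1 of the group. The 8 in PAM day 1 became 14 higher and 1 lower at an adjusted p under 0.05, and 4 without both untreated libraries, with 6 to 11 when 1 library was left out.

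The 5 in indirect day 2 became 2 with all groups in one fit, 11 higher and 4 lower at an adjusted p under 0.05, and 2 without both untreated libraries. Leaving out 1 library gave 2 to 8, with 2 without untreated line 1, untreated line 2, or line 2 or 4 of the group, 3 without untreated line 4, and 8 without line 1 of the group. The 3 higher in PAM day 2 became 5 with quantile normalization, 11 at an adjusted p under 0.05 and 0 without both untreated libraries, with 2 to 7 when 1 library was left out and 7 without line 1 of the group. The 1 lower, Psmb9, became 0 with no filter on low values, 0 with the replicate block, 0 without both untreated libraries, 0 without the treated libraries of line 1 and 0 without any 1 of the 7 libraries, and 5 genes were lower at an adjusted p under 0.05. With the treated libraries of line 1 left out, added after the data were seen, the numbers higher were 14 for CAP for 24 h from day 1, 3 in indirect day 1, 8 in indirect day 2 and 7 in PAM day 2. That choice favours more calls in the set, and the share of all genes in these fits is not given here. Between treated groups, PAM day 2 against PAM day 1 gave 1 gene with all groups in one fit.

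Outside the set, for CAP for 24 h from day 1, the 1 receptor and kinase gene (Socs3) became 5 at an adjusted p under 0.05 and 0 without both untreated libraries, with 0 to 1 when 1 library was left out and 0 without untreated line 1, direct CAP for 24 h line 4 or indirect day 1 line 4. The 0 sensor adaptors became 1 with all groups in one fit and 7 at an adjusted p under 0.05. The 4 other interferon-induced genes became 2 with quantile normalization, 2 with a pseudocount of 10, 9 with the replicate block, 16 at an adjusted p under 0.05, 0 without both untreated libraries and 7 without the treated libraries of line 1. Leaving out 1 library gave 1 to 5, with 1 without untreated line 2 or 4 and 2 without indirect day 1 line 4 or PAM day 1 line 2 or 4. The 3 sensor adaptors lower in PAM day 2 became 0 without both untreated libraries. The replicate block moved no other count here by more than 1.5 times. The 18 genes with line 1 lowest became 19 with quantile normalization.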
